A study of Mus musculus with 17 samples.

Results

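Transthyretin (Ttr) and 9 further genes of the choroid plexus and meninges were followed across 17 oligonucleotide arrays of mouse brain. The 10 genes were named as a list, and each was represented by the probe sets that the platform annotation pairs with its symbol. Of the 10, 9 were found, with 15 probe sets of the 12488 on the array, among 8252 genes in all. Enpp2 was not analysed here. The genes were chosen by name as a readout of dissection, with earlier results of the same arrays known, so their values are a description of these arrays and not independent support for a pattern.

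The tissue was grey and white matter supplied by the middle cerebral artery. There were 4 groups of pools, with 3 arrays in each group and RNA from 6 brains on each array. Control pools came from mice given saline and drug control pools from mice given AEOL 10150, a catalytic antioxidant, both collected 6 h after the injection. In the ischemic pools 1 h of ischemia was followed by 6 h of reperfusion, and treated ischemic pools had the same schedule with intravenous AEOL 10150 after the ischemia. A further 5 arrays each carried 1 treated ischemic brain, numbered 11, 12, 13, 14 and 16. The labels give no strain, age, sex or dose. For drug control pool 1 the description names saline, and for treated ischemic pool 1 it names no drug. Treated ischemic pools 1 and 2 are both described as the first replicate of their group, and brain 11 carries the number 4 in its title. Titles set the groups and pool numbers here, and descriptions the numbers of the single brains. Treated ischemic pools 2 and 3 and the 5 single brains had been deposited on scales of their own, while the other 10 arrays shared a scale. All arrays were brought to a common trimmed mean, and values under an intensity of 109.5 were raised to that floor, which is 6.77 on the log2 scale. The share of an array at the floor was 24.3% to 26.5%. In bulk RNA, fewer cells of a type and less RNA per cell cannot be told apart.

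The choroid plexus is the secretory epithelium that lies in the brain ventricles and makes cerebrospinal fluid. Its cells make and secrete transthyretin, which carries thyroxine and retinol-binding protein, and they carry klotho (Kl), a co-receptor for fibroblast growth factor 23, and folate receptor alpha (Folr1), which moves folate into the fluid. The meninges cover the brain surface and follow large vessels inward. Their fibroblast-like cells make type I collagen (Col1a2) and the small leucine-rich proteoglycans decorin (Dcn) and osteoglycin (Ogn). Insulin-like growth factor 2 (Igf2), its binding protein Igfbp2 and prostaglandin D2 synthase (Ptgds) are made in both structures, and Ptgds is made in oligodendrocytes as well.

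RefSeq promoter windows on the GRCm38.p6 build were given for 6 of the members. Those of Kl and Ptgds are shown because both genes have probe sets whose highest pool carried the same replicate number as that of Ttr in every group, as described further on. Each run is the 250 bases before an annotated start, read in the direction of the gene, at chr5:150952357-150952606 on the plus strand for Kl and at chr2:25469750-25469999 on the minus strand for Ptgds.
Kl: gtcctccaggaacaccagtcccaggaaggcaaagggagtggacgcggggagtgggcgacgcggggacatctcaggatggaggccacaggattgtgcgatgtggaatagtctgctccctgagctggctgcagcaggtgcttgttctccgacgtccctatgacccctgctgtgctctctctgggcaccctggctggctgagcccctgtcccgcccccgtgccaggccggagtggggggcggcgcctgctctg
Ptgds: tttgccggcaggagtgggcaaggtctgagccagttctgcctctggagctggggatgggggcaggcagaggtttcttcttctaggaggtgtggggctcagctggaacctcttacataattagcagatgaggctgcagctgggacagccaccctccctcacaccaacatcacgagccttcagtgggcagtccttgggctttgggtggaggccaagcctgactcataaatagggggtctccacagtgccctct
The letters TAATCC, the core recognised by OTX2, a homeodomain factor of the choroid plexus, were searched on both strands and would be in capitals. They were in 0 of the 10 windows of the 6 members and in 6.25% of all 32851 windows of this length (2054 windows). A missing match says only that these letters are not in these windows.

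Ttr was strong on 16 of the 17 arrays and at the floor on 1. Its log2 intensities were 12.24, 13.57 and 12.83 in control pools 1 to 3, 12.06, 12.57 and 12.09 in drug control pools, 12.75, 13.22 and 13.08 in ischemic pools and 12.62, 13.21 and 12.98 in treated ischemic pools. The group means were 12.88 ± 0.66, 12.24 ± 0.29, 13.02 ± 0.24 and 12.94 ± 0.30 (SD, n = 3). The drug control pools were the lowest group, and their values did not overlap those of the ischemic or the treated ischemic pools, while the control pools overlapped every other group. How many of all probe sets separate likewise with 3 pools a group was not counted. In the single brains Ttr read 13.95 in brain 12, 12.82 in brain 13, 13.08 in brain 14 and 13.76 in brain 16. In brain 11 it read 6.77, the floor, from a scaled intensity of 10.9. Ttr was therefore at least 98.8-fold lower in brain 11 than the mean of the other 4 brains, and at least 39.1-fold lower than the lowest of the other 16 arrays.

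Kl and Folr1 were the other choroid members low in that brain. Kl read 10.40, 8.80, 9.88 and 9.75 in brains 12, 13, 14 and 16 and lay at the floor in brain 11, at least 7.63-fold below their mean. On all 12 pools Kl lay above the floor, between 8.31 and 10.16. The brighter Folr1 probe set (93785_at) read 10.58, 10.60, 9.98 and 9.64 in the 4 brains and 7.01 in brain 11, which was 9.14-fold below their mean and 3.27-fold below the lowest other array. The dimmer Folr1 probe set (162302_f_at) disagreed. It read 7.39 in brain 11, inside the range of 6.77 to 8.67 of the other brains.

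The meningeal members gave a mixed picture in brain 11. Dcn was 11.34 there, the lowest of the 17 arrays, but brain 13 read 11.36, and brains 12, 14 and 16 read 12.46, 12.93 and 12.35. Ogn (99549_at) was 7.55 against 8.38, 8.88, 9.29 and 8.40 in the other brains, and the dimmer Ogn probe set (160877_at) was at the floor against 7.45 to 8.66. Neither Ogn value was outside the range of the pools. For 160877_at 8 of the 12 pools were at the floor. For 99549_at only 1 was, drug control pool 2, and the other pools read 7.74 to 8.95, all above brain 11. Col1a2 was not low: its probe set 101130_at read 9.28 in brain 11 against 8.30 to 9.91 in the others, and 161156_r_at read 11.80 against 11.57 to 11.85. Igf2 (98623_g_at) at 13.59 lay between the lowest, 13.29, and the highest, 14.18, of the other brains. The other Igf2 probe set (98622_at) disagreed, at the floor on all 17 arrays, so every Igf2 value given here rests on 98623_g_at alone. Igfbp2 and the 3 Ptgds probe sets were each lowest in brain 11, by 1.30-fold for Igfbp2 and by 1.12-fold to 1.29-fold for Ptgds against the mean of the other 4.

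**Figure D1:**
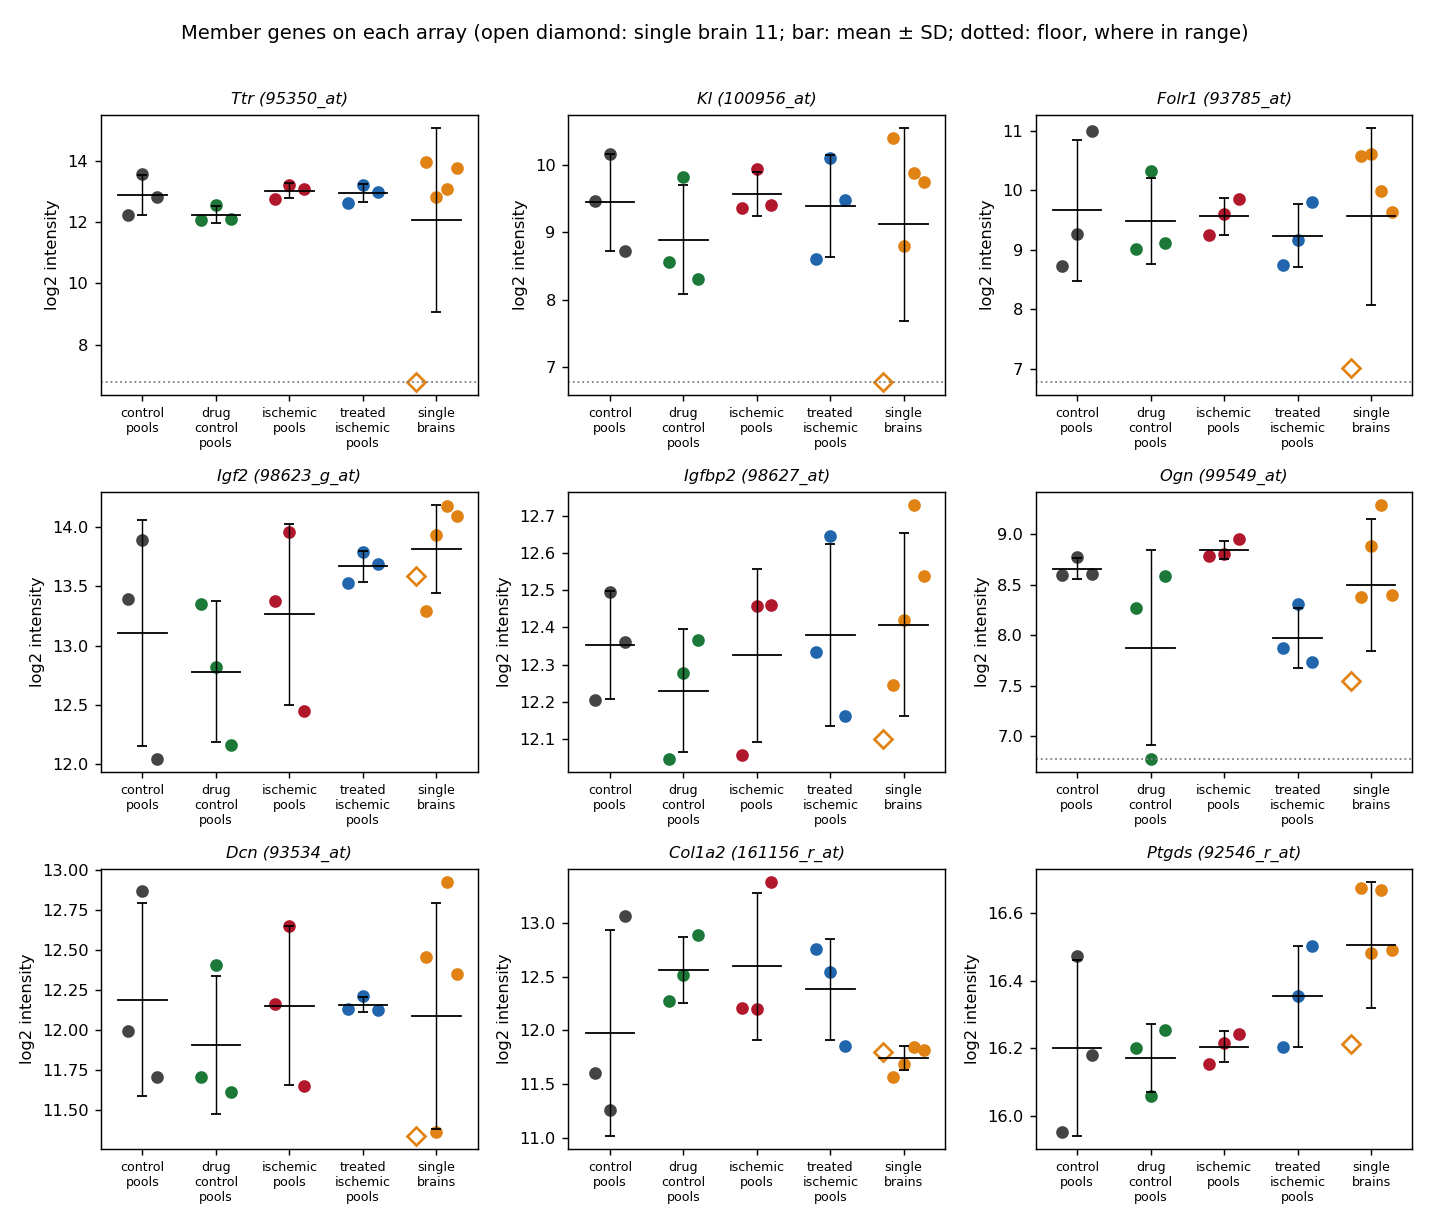
Log2 intensity of the brightest probe set of each member gene on every array, in the 4 groups of pools and the single brains; long bars are group means and whiskers are SD (n = 3 pools or 5 brains), and the dotted line is the floor, drawn where it lies near the values. Single brain 11, the open diamond, sits at the floor of 6.77 for Ttr and Kl and at 7.01 for Folr1, and inside the other brains' range for Igf2 and Col1a2.

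Other genes of both structures were then read in brain 11. Of 28 further choroid plexus genes listed, 13 had a probe set, and 12 of these were above the floor in at least 1 single brain. Brain 11 was lowest of the 5 for 5 of the 12, including coagulation factor 5 (F5), at the floor against 7.72 to 9.39, and Rdh5, a retinol dehydrogenase, at the floor against 7.39 to 9.62. Both genes also reached the floor in pools. Brain 11 was also lowest for Cldn1, a tight junction protein, at 8.99 against 9.41 to 9.59, and for the carbonic anhydrases Car12 and Car2, at 9.77 against 10.02 to 10.71 and at 13.69 against 13.81 to 13.98. Against the pools these 3 were not low: Cldn1 and Car2 lay inside the range of the pools, 7.88 to 10.52 and 13.07 to 14.24, and Car12 lay above its range of 7.53 to 9.71. The summed scaled intensity of the 13 choroid genes was 22956 in brain 11, the lowest of the 5 brains (highest 28097) but not below the pools, whose lowest was 20320. Car2, which oligodendrocytes make as well, was 57.7% of that sum in brain 11, and without it the sum was 9700 against 10988 to 11970 in the other brains and 8305 to 17914 in the pools. Cldn2, a defining tight junction gene of choroid plexus epithelium, was at the floor on all 17 arrays. Of 25 further meningeal and fibroblast genes above the floor in a single brain, brain 11 was lowest for 1, Pcolce, and highest for 6, among them Col1a1, at 10.31 against 9.19 to 10.13. The summed intensity of the meningeal list in brain 11, 54816, was the median of the 5 brains. Some genes of other cell types and regions were low in brain 11 too. It was lowest of the 5 for 3 of 9 oligodendrocyte genes and for 3 of 9 genes of the thalamus and hypothalamus, and brain 13 was lowest for 4 of 9 in both lists. Trh, a hypothalamic gene, was counted in both lists, since an alias of the listed Trf brought it among the oligodendrocyte genes. It was not lowest in brain 11. The summed intensity of the thalamus and hypothalamus list was 22148, against 21726 to 62058 over the single brains and a lowest pool of 30388. Hcrt, the hypothalamic neuropeptide orexin, read 8.06 in brain 11 against 8.81 to 12.88 in the other brains and 10.42 to 11.88 in the pools. Brain 11 was also lowest of the 5 for Lef1 and Gal, both inside the range of the pools. The rest of that list lay inside the range of the other brains. Among them Oxt read 11.47 against 9.93 to 13.37, and Avp read 10.12 against 6.77 to 12.95. What part the region taken had in the values of Ttr, Kl and Folr1 was not tested.

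**Figure D2:**
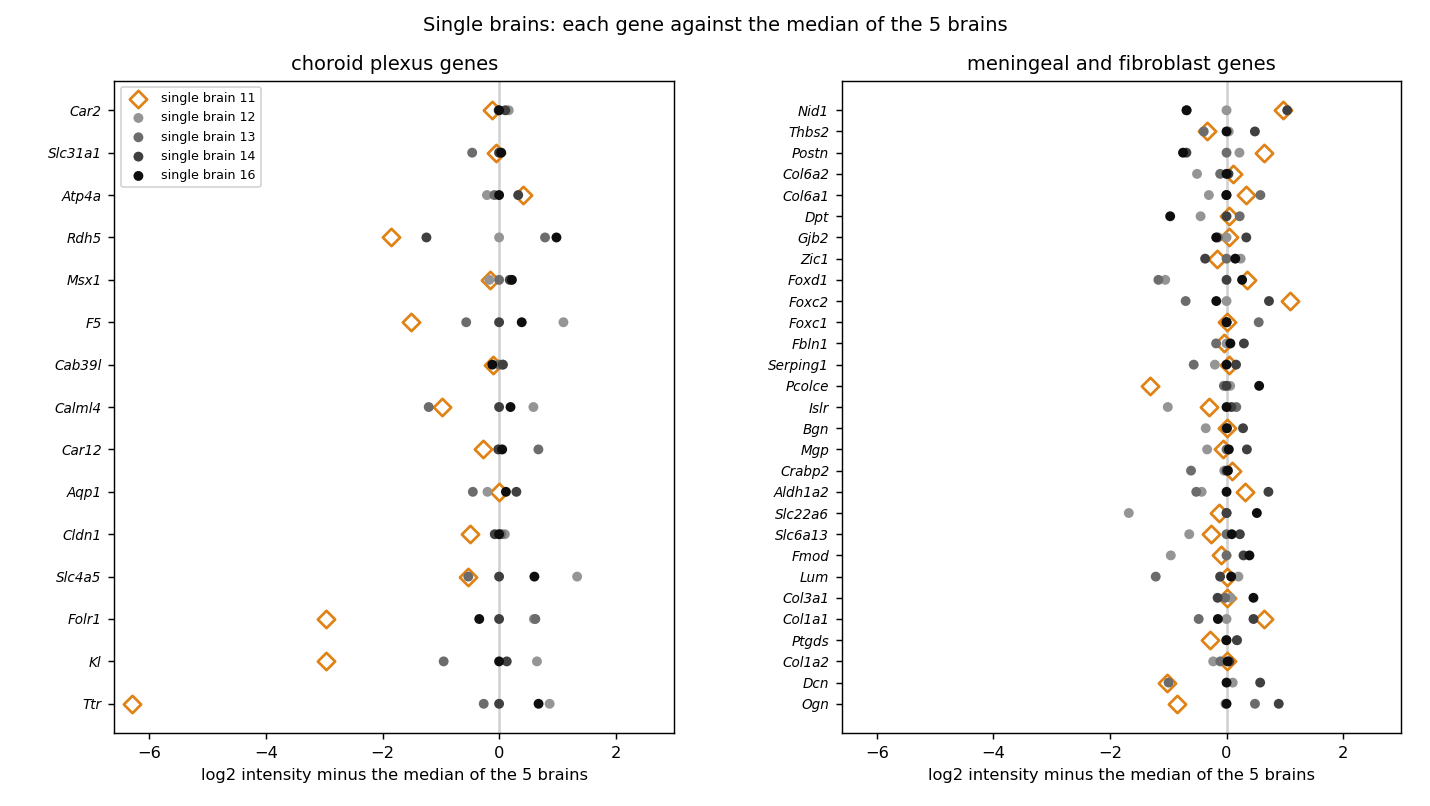
Log2 intensity of each choroid plexus gene (left) and meningeal or fibroblast gene (right) in the 5 single brains, as the difference from the median of the 5 brains; open diamonds are brain 11. Ttr, Kl and Folr1 stand apart on the left, while brain 11 lies among the other brains for most genes on the right.

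Array-wide measures of brain 11 lay within the range of the pools. It had 24.9% of its values at the floor, a share that the scaling and the choice of floor hold near 25% on every array. Its actin 3'/5' ratio was 1.60 against 1.38 to 1.55 in the other single brains and 1.15 to 2.14 in the pools. On this array 18 probe sets were at the floor here alone, against 10 to 90 on the other arrays. Ttr was the only one of the 18 that was more than 4-fold above the floor on all 16 other arrays. The SD of Ttr over the 5 brains was 3.00, and no tested probe set had a larger one. For Folr1 (93785_at, SD 1.48) 42 probe sets had a larger SD, and for Kl (SD 1.43) 55 had. Without brain 11 the SD of Ttr over the other 4 was 0.54, with 16.6% of probe sets above it.

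Among the pools, values were also read by replicate number, which the 4 groups share. Pool 2 was the highest and pool 1 the lowest of its group for Ttr in all 4 groups. Pool 2 was also highest in all 4 groups for Kl, for Dcn and for the Ptgds probe sets 102105_f_at and 92545_f_at, whereas the brightest Ptgds probe set, 92546_r_at, was highest in pool 3 in 3 of the 4 groups. For the treated ischemic group this rests on the numbers in the titles. Folr1 was lowest in pool 1 of every group with both probe sets, but its brighter probe set was highest in pool 3 in 3 of the 4 groups. Dcn was lowest in pool 3 of every group: it read 12.00, 12.87 and 11.70 in control pools 1 to 3, 11.71, 12.40 and 11.61 in drug control pools, 12.16, 12.65 and 11.65 in ischemic pools and 12.13, 12.21 and 12.13 in treated ischemic pools. Ttr and Dcn thus shared the highest pool and differed in the lowest, though some of the lowest places were near ties. Ttr read 12.065 and 12.089 in drug control pools 1 and 3, and Dcn read 12.133 and 12.128 in treated ischemic pools 1 and 3. How many of all probe sets share a highest number in all 4 groups was not counted. Igf2 also had its lowest value in pool 3 in 3 groups, at 12.05, 12.17 and 12.45 in control, drug control and ischemic pools, but not in treated ischemic pools, which read 13.53, 13.79 and 13.69.

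The means of the 3 replicate numbers were then compared with limma's F test, with group in the model. The range between the highest and lowest mean was 0.72 for Ttr (adjusted p = 0.0706), 1.03 for Kl (adjusted p = 0.0629), 0.76 for Dcn (adjusted p = 0.0777) and 1.03 for Igf2 (adjusted p = 0.122). The dimmer Folr1 probe set passed, with a range of 1.67 (adjusted p = 0.0485), but 3 of its 4 values in pools numbered 1 were at the floor, and it was lost when any 1 pool other than ischemic pool 1 or treated ischemic pool 3 was left out, under either other floor, with no filter, without the treated ischemic pools and when descriptions set the groups. In all, 1 of the 14 member probe sets tested passed, beside 8.53% of the 10259 probe sets tested (875). At an unadjusted p under 0.05 there were 6 of 14 members, beside 27.6% of all. Without treated ischemic pool 3, 6 members passed (Col1a2, Dcn, Folr1, Igf2, Kl and Ttr), and the count over all probe sets rose from 875 to 2441. The actin 3'/5' ratio moved with the replicate number too in the control, drug control and ischemic groups. It was 1.15 to 1.19 in their pools 3 against 1.33 to 2.14 in their pools 1 and 2. The treated ischemic group differed, with 1.68, 1.29 and 1.34 in pools 1 to 3. The same ratio for Gapdh was highest in pool 2 of all 4 groups, as Ttr was. By group, pool 2 read 1.16 (control), 1.55 (drug control), 1.32 (ischemic) and 1.20 (treated ischemic). Pools 1 and 3 read 0.90 to 1.19, the highest being treated ischemic pool 3. The part of either ratio in the differences between numbers was not tested. What a replicate number stands for is not in the labels.

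**Figure D3:**
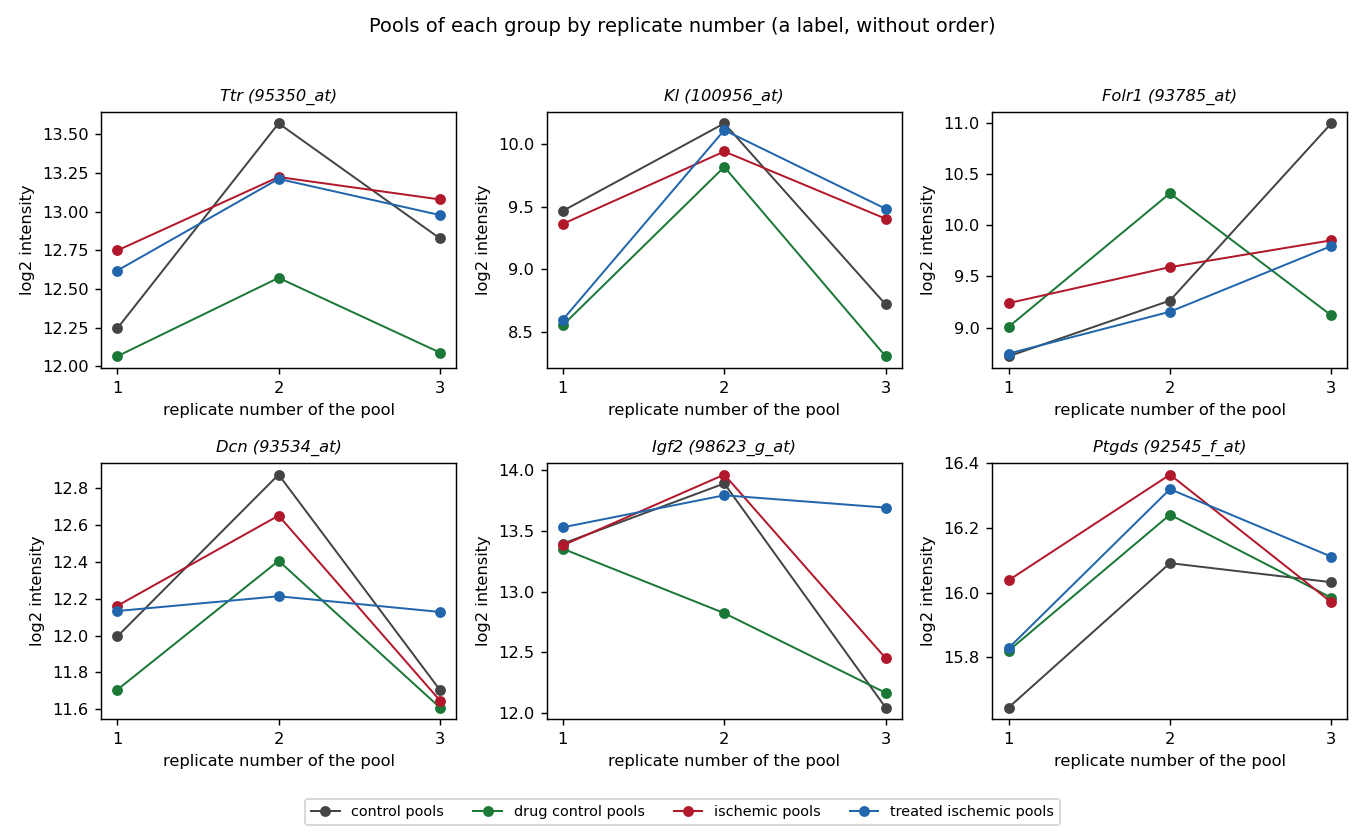
Log2 intensity of 6 member probe sets in the 12 pools against the replicate number of the pool, which is a label without order; lines join the 3 pools of a group. Ttr, Kl, Dcn and the Ptgds probe set 92545_f_at peak in pool 2 of all 4 groups, Folr1 is lowest in pool 1, and Igf2 is lowest in pool 3 of 3 groups.

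Whether choroid and meningeal genes varied together was first read from single genes. Over the 12 pools the log2 value of Kl had a Pearson r of 0.74 and a Spearman rho of 0.76 with Ttr, and 1.64% of 7419 probe sets above the floor in all pools had a higher r. Dcn had an r of 0.65 with Ttr, Igfbp2 of 0.62, the Ptgds probe sets of 0.48 to 0.63 and Igf2 of 0.42. The brightest probe sets of Folr1 and Col1a2, 93785_at and 161156_r_at, had an r of 0.27 and -0.19. The 5th to 95th percentile of r with Ttr over all those probe sets was -0.63 to 0.64. Dcn had an r of 0.78 with Kl, of 0.73 with Igf2 and of -0.65 with Col1a2 (161156_r_at), where the 5th to 95th percentile of r with Dcn over all those probe sets was -0.79 to 0.77. The points share replicate numbers: with group and number both taken out, r with Ttr was 0.06 for Kl, 0.38 for Dcn, 0.80 for Ptgds 92546_r_at and 0.79 for 102105_f_at, and -0.01 for 92545_f_at. Without the 2 pools farthest from the median of Ttr, r with Ttr was 0.61 for Kl and 0.40 for Dcn.

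Some genes outside the list had a higher r with Ttr over the pools than any member. These genes were picked for the highest r among probe sets above the floor in all pools, so their high r comes from that choice. They included Ndufb9, a subunit of mitochondrial complex I (r 0.93), Npy, the neuropeptide Y gene (r 0.92), Tmem126a (r 0.90), Lpin1 (r 0.88) and Chchd10 (r 0.88). In brain 11, where Ttr lay at the floor, Ndufb9 read 14.07 against 13.94 to 14.20 in the other brains, and Npy read 14.21 against 13.66 to 14.16. Dcn was followed most closely by Gstm5, a glutathione transferase (r 0.96), and Ddt (r 0.94). Of 12 further choroid genes above the floor on at least 1 pool, 7 had an r with Ttr above 0, and the median was 0.33. F5 had an r of 0.79, above that of Kl, and Calml4 of 0.63, though both were at the floor on some pools. Over the 8 choroid genes above the floor in all pools the median was -0.02. For 25 meningeal genes the median r was 0.20 with Ttr, with 15 above 0, and 0.02 with Dcn. Within groups, the association with Ttr was tested by limma with adjustment over 10258 probe sets, and 0 of 13 member probe sets passed, beside 0% of all. Kl had the smallest adjusted p among them, with a slope of 1.15 (SE 0.42, adjusted p = 0.260), and Dcn had a slope of 0.71 (SE 0.31, adjusted p = 0.342). Unadjusted p lay under 0.05 for 5 of the 13 members and for 14.3% of all probe sets.

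A choroid index (mean of Ttr, Kl and Folr1, each against its mean over the pools) and a meningeal index (the same for Ogn, Dcn, Col1a2 and Ptgds) summarised each array. Igf2 and Igfbp2, made in both structures, were in neither index. Over the 12 pools the Pearson r of the indices was 0.26 and their Spearman rho 0.36, or 0.19 and 0.18 with Ptgds, also made in both, left out. With group means taken out r was 0.00, with group and replicate number both taken out it was -0.61, and without drug control pool 2 it was 0.49. Over all 17 arrays r was 0.61, but brain 11 carries this value, with a choroid index of -3.67 and a meningeal index of -0.54. Over the 16 arrays without brain 11, r was 0.25. The 2 Col1a2 probe sets disagree: 161156_r_at was highest in pool 3 of 3 groups, whereas 101130_at was at the floor on 7 of 12 pools. With 101130_at in place of 161156_r_at, r over the pools was 0.33, and the meningeal index of brain 11 was 0.07. In that form of the index brain 11 lay within the range of the pools for meningeal genes and far below every other array for choroid genes. It was still the lowest single brain for meningeal genes, the others lying at 0.23 to 1.17. Probe set 101130_at was above the floor in every single brain. In the main form the meningeal index of brain 11 was the lowest of the 17 arrays, and the next lowest was -0.32 in drug control pool 2.

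**Figure D4:**
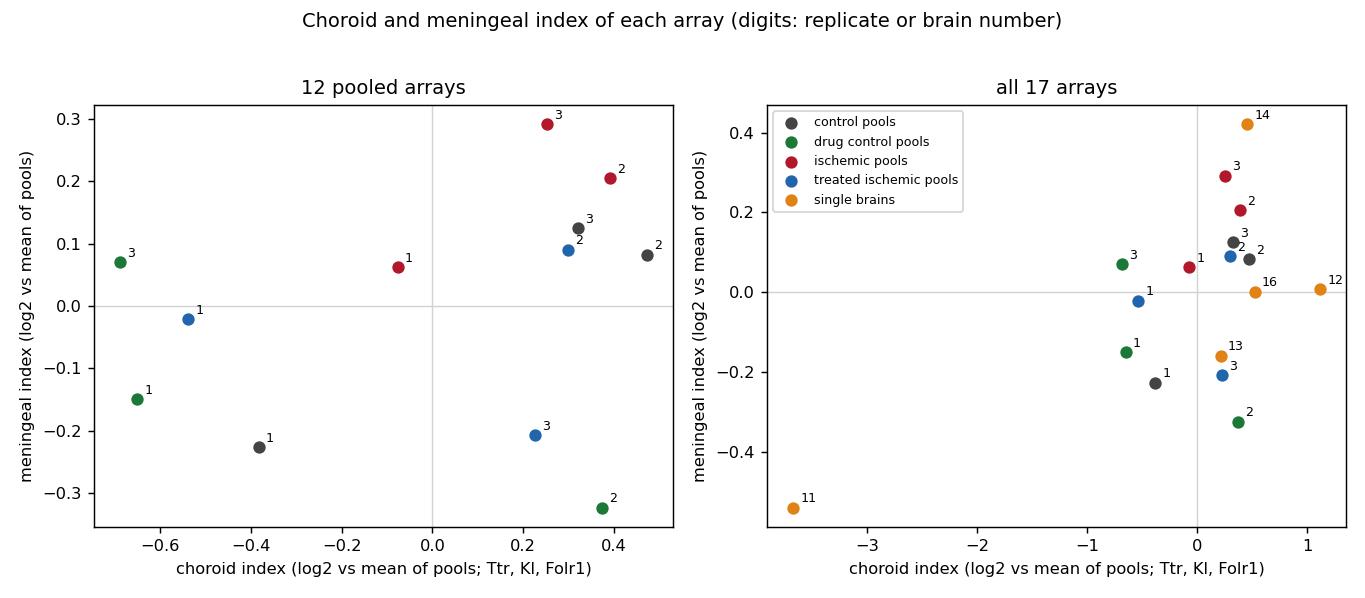
Choroid index against meningeal index, both as log2 differences from the mean of the 12 pools, for the pools (left, r 0.26) and for all 17 arrays (right, r 0.61); digits are replicate or brain numbers and colours are groups. Brain 11 lies at -3.67 on the choroid axis, and the other 16 arrays lie between -0.69 and 1.11.

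No member passed in any treatment comparison of pools, each tested with limma over 10259 probe sets with 3 pools a group. At an unadjusted p under 0.05 there was 1 member probe set in these comparisons, Col1a2 (101130_at) for the drug without ischemia. After ischemia without the drug, Ttr differed by 0.14 (SE 0.33, adjusted p = 1), and 0 of 14 member probe sets passed beside 0.214% of all. The 14 member differences ran from -1.26 to 0.62 with a median of 0.11, beside 0.03 for all probe sets. For ischemia with the drug the difference in Ttr was 0.69 (SE 0.33, adjusted p = 1), higher in all 3 treated ischemic pools than in any drug control pool. The share of all probe sets that separate likewise was not counted. In this comparison 0 of 14 member probe sets passed beside 0.0877% of all probe sets. Igf2 differed by 0.89 (SE 0.51, adjusted p = 1), with member differences from -0.53 to 0.89. On arrays of the common scale alone, where 1 treated ischemic pool is left, the Ttr difference was 0.38.

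The drug after ischemia left Ttr at -0.08 (SE 0.33, adjusted p = 1), with 0 of 14 members called beside 0.00975% of all probe sets. Ogn (99549_at) read 8.78, 8.81 and 8.95 in ischemic pools and 7.88, 8.30 and 7.74 in treated ischemic pools, without overlap, a difference of -0.87 (SE 0.39, adjusted p = 1). The share of all probe sets without overlap was not counted here either. For the drug without ischemia Ttr differed by -0.64 (SE 0.33, adjusted p = 1), lower in each drug control pool than in the control pool of the same number, although the groups overlapped. It was -0.96 without control pool 1, -0.29 without control pool 2 and -0.35 with groups from the descriptions. There again 0 of 14 passed, beside 0.00975% of all probe sets. The dimmer Col1a2 probe set (101130_at) read 8.57, 9.55 and 7.08 in control pools and was at the floor in all 3 drug control pools. Its group mean was at least 3.09-fold lower with the drug (adjusted p = 1), while 161156_r_at differed by 0.58 (SE 0.49) in the other direction. The difference between the ischemia responses with and without the drug was 0.56 for Ttr (SE 0.46, adjusted p = 1.00), and 0 of 14 members passed beside 0% of all. That difference was 0.88 without control pool 1 and 0.21 without control pool 2. With replicate number as a block, the SE of Ttr fell from 0.33 to 0.19, and its adjusted p was 0.510 for ischemia with the drug and 0.898 for the drug without ischemia. The actin 3'/5' ratio was 1.97, 2.14 and 1.15 in the drug control pools and 1.65, 1.33 and 1.19 in the control pools, and its part in these differences was not tested.

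**Figure D5:**
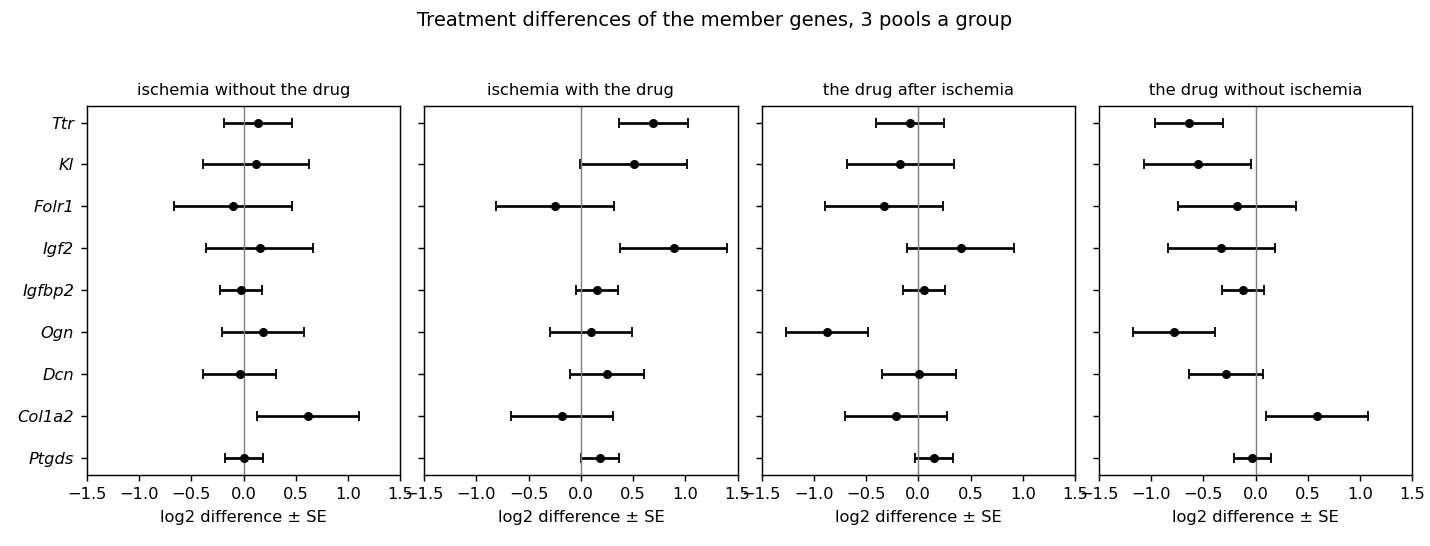
Log2 difference and its SE for the brightest probe set of each member in 4 comparisons of pools, 3 pools a group. Ttr differs by 0.14, 0.69, -0.08 and -0.64 from left to right, and no member passed the threshold in any panel.

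Single brains were also set against pools, with all 17 arrays in the fit and 10541 probe sets tested. Against the treated ischemic pools, which had the same treatment, Ttr differed by -0.86 (SE 1.19, adjusted p = 0.856), and without brain 11 by 0.46 (SE 0.33, adjusted p = 0.731). No member of the 14 tested passed, beside 0.0379% of all probe sets (4). Against the drug control pools, which had the drug and no ischemia, Ttr differed by -0.17 (SE 1.19, adjusted p = 0.955), and by 1.16 (SE 0.33, adjusted p = 0.131) without brain 11. Here too 0 of 14 members passed, beside 1.19% of all probe sets (125), and 4 members had an unadjusted p under 0.05, beside 20.1% of all. Col1a2 (101130_at) was the nearest, above the floor in all 5 brains and at the floor in all 3 drug control pools, hence at least 5.19-fold higher in the brains (SE of the log2 difference 0.55, adjusted p = 0.0515). Its other probe set, 161156_r_at, was 1.76-fold lower in the brains (adjusted p = 0.237). Igf2 was 1.04 higher on the log2 scale (SE 0.41, adjusted p = 0.188), with 4 of the 5 brains above every drug control pool. For Col1a2 and Igf2 alike, the share of all probe sets placed in such a way was not counted.

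Among the further genes of both structures, Aldh1a2, the retinaldehyde dehydrogenase of the meninges, Col3a1, a fibrillar collagen, and Gjb2, the connexin of leptomeningeal cells, rose in the single brains against the drug control pools. These were 3 of 25 meningeal genes tested, and none fell, beside 1.19% of all probe sets, 77 of which rose and 48 fell. Of 12 choroid genes 1 rose, Car12, and none fell. The median difference was 0.17 for the meningeal list and -0.03 for the choroid list, beside -0.05 over all probe sets. Other lists had medians farther from that of all probe sets. The median was 0.49 for the oligodendrocyte list, which includes the hypothalamic gene Trh, with 7 of 8 genes higher and none past the threshold. It was 0.37 for ependyma, 0.35 for endothelium and mural cells, with 12 of 15 higher, and -0.98 for striatal neurons, of which Drd2 fell. These groups differ in ischemia, in pooling and in the scale of deposition, which cannot be told apart in this comparison. In the treatment comparisons of pools, no gene of either list passed. Between replicate numbers 1 of 11 choroid genes passed, Calml4, and 0 of 25 meningeal genes did, beside 8.53% of all probe sets.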

How the data were processed

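The authors deposited a table of intensities on a linear scale, 1 value per probe set and array. What software made them is not given in the sources used here. Values below 0 made up 15.2% to 19.3% of an array. Each array was rescaled so that its mean between the 2nd and 98th percentiles was 2500, floored at the 25th percentile of the scaled pools, and log2 transformed. A fold against arrays at the floor is a lower bound. Tests left out 66 control probe sets of the array and those not above the floor on 3 or more arrays. Linear models came from limma 3.58.1 (R 4.3.3), with Benjamini-Hochberg adjustment over all tested probe sets, a threshold of 0.05 and two-sided tests. The 12 pools shared 1 fit (8 residual and 2.23 prior degrees of freedom). The fit was tested on simulated data. The p-values measure the spread between these arrays.

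The members and gene lists were chosen with earlier results of these data known. Named genes were all member probe sets, the 8 probe sets most correlated with Ttr and with Dcn (of which some are given), and list genes past the threshold or singled out in brain 11 after their values were seen. Trh is named because an alias placed it in the oligodendrocyte list. The brightest probe set stands for a gene in the indices. Replicate numbers paired the control, drug control and ischemic pools, in that deviations of equally numbered pools correlated at 0.33 to 0.57, but not the treated ischemic pools (-0.34 to 0.40). Promoter windows came from RefSeq. Alternatives covered the floor, normalization, filter, prior, groups, scale and each array left out. Both other floors lay above the main one, at 6.90 and, for the higher floor, 8.84 on the log2 scale, so no lower floor was tried.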

Additional observations from a re-analysis of the deposited data

Results flagged for a closer look

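Of 14 member probe sets examined over the 5 single brains, 2 had a lowest brain far from the others. Ttr was 6.77 in brain 11, the floor, and its gap to the next brain was 0.842 of the whole range. Folr1 (93785_at) was 7.01 in brain 11, with a gap of 0.732 of the range. Dixon's 95% critical value for 5 samples is 0.71, which chance passes in about 5% of groups. Kl was at the floor in brain 11 as well, but brain 13 was low enough that its gap did not pass.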

How the results depend on the processing

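No member passed in a treatment comparison of pools, in the association with Ttr or in the single brains against treated ischemic pools under any alternative run. The count of members for replicate number was 1, and became 0 with the floor at the 10th percentile of values above 0 or without both arrays of unlike labels, 3 with the floor at the 40th percentile (Dcn, Kl and Ttr), 4 with a trended prior, 2 without the treated ischemic pools, and 2 on arrays of the common scale alone, an alternative chosen after seeing the data. The 1 was Folr1, but with no filter it was Ptgds and with groups from descriptions Ttr. Leaving out 1 array gave 0 to 6. The count over all probe sets, given below, rose as well with a trended prior, without the treated ischemic pools and on the common scale. It fell without both arrays of unlike labels. Against drug control pools the count of 0 became 1 (Col1a2) with a trended prior, and leaving out 1 array gave 0 to 1. The index correlation of 0.26 was 0.48 with the higher floor, 0.0018 with group means out, -0.61 with group and the replicate block out, and 0.61 over 17 arrays; leaving out 1 pool gave 0.16 to 0.49. Without Ptgds the index correlation was 0.19. Chosen after seeing the data, r was 0.33 with the other Col1a2 probe set and 0.35 without Col1a2. Likewise chosen, it was 0.32 without the treated ischemic pools, 0.32 on the common scale and 0.25 over the 16 arrays without brain 11.

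The sign of Ttr turned in these cases. For ischemia without the drug, leaving out 1 array gave -0.18 to 0.48. For the drug after ischemia it was 0.18 with groups from descriptions and 0.078 without both arrays of unlike labels, and leaving out 1 array gave -0.22 to 0.078. For the single brains, leaving out 1 array gave -1.33 to 0.46 against treated ischemic pools and -0.63 to 1.16 against drug control pools, and the higher floor gave 0.25 against the latter. The cause was not tested, apart from brain 11 at the floor.

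Counts over all probe sets moved more. Ischemia without the drug had 22, with 13 after quantile normalization, 11 without both arrays of unlike labels, 35 with the replicate block and 1 to 25 with 1 array left out. Ischemia with the drug had 9, with 16 at the higher floor, 3 without both arrays of unlike labels, 1 with the scale as a block, 0 on the common scale and 1 to 12 with 1 array left out. The drug alone had 1 in either setting, and 0 to 2 over its alternatives, the interaction had 0, or 1 with no filter, and the association with Ttr had 0, or 1 without control pool 2. Replicate number had 875, with 186 without both arrays of unlike labels, 1416 with a trended prior, 1411 without treated ischemic pools, 1401 on the common scale and 341 to 2441 with 1 array left out. Single brains had 4 against treated ischemic pools (2 to 7, and 1 to 33 with 1 array left out) and 125 against drug control pools (51 to 246 with 1 array left out). The replicate block changed no other call on a member. With 3 pools a group and 1 array per brain, the number of arrays limits precision.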
